A study of Mus musculus with 6 samples.

Results

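The genes described here are 8 genes that led the tuft-like cells of single-cell RNA profiles of mouse jejunum: Sh2d6, Ptpn18, Fyb, Ptpn6, Cd24a, Krt18, Atp2a3 and Reep5. They were taken by name, and all 8 were among the 5674 genes held by both deposited tables, which name genes by Ensembl identifier. They were selected on their high level in the tuft-like cells of these same data, so their level there is a description and was not tested. Epithelial cells came from 3 mice, 120 days old and of mixed CD-1:C57BL/6 background, and the labels give no genotype or treatment. Each mouse gave an anterior jejunum sample (the 3rd of 12 pieces of small intestine) and a posterior jejunum sample (the 7th), so that 6 samples formed 2 groups of 3. In every sample, cells of villi and of crypts were mixed 1:1, and living cells that stained for EpCAM, a surface protein of epithelium, were sorted singly into plates. The libraries followed MARS-seq, which tags each captured mRNA molecule with a unique molecular identifier (UMI). Levels are given as UMIs per 10000 UMIs of the cell (CP10K).

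Tuft cells are rare chemosensory cells of the gut epithelium that carry a brush of long microvilli. They sense luminal metabolites through a calcium-dependent cascade like that of taste cells and call the type 2 immune response to worms and protists by releasing interleukin-25. Enteroendocrine cells, which release peptide hormones, and goblet cells, which release mucus, belong to the same secretory branch of the epithelium. Among the 8 genes, Sh2d6 encodes an adaptor with an SH2 domain, a fold that binds phosphorylated tyrosine, and Fyb an adaptor known from T cell receptor signalling. Ptpn6 encodes SHP-1, a phosphatase that takes phosphate off tyrosines in blood cells, and Ptpn18 encodes another tyrosine phosphatase. Cd24a encodes a small glycoprotein anchored in the outer membrane, and Krt18 a keratin of simple epithelia that pairs with keratin 8. Atp2a3 encodes SERCA3, a pump that moves calcium into the endoplasmic reticulum, and Reep5 a protein that bends the membrane of that organelle.

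The genes lie apart in the genome. In the GENCODE vM21 annotation of GRCm38, Sh2d6 (ENSMUSG00000052631) lies on chromosome 6 at 72513641 to 72521707 and Ptpn6 (ENSMUSG00000004266) on the same chromosome at 124720707 to 124738714, both on the minus strand. Fyb (ENSMUSG00000022148) lies on chromosome 15 at 6522853 to 6663313 and Krt18 (ENSMUSG00000023043) on that chromosome at 102028180 to 102032027, both on the plus strand. Ptpn18 (ENSMUSG00000026126) lies on chromosome 1 at 34459762 to 34475733, Cd24a (ENSMUSG00000047139) on chromosome 10 at 43578284 to 43584265 and Atp2a3 (ENSMUSG00000020788) on chromosome 11 at 72961169 to 72993044. Reep5 has the identifier ENSMUSG00000005873. Ptpn18, Fyb and Ptpn6 each overlap a gene on the opposite strand (Gm28417, Gm2245 and Gm20531), and Fyb also a pseudogene on its own strand (Gm7666). The sources used here do not give whether the counting used strand, so reads of these pairs may not be separable.

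The 250 bases before the RefSeq start site (GRCm38.p6) are shown for 3 members that differ in how far they were shared with other cells: Sh2d6 and Fyb, the pair of highest mean correlation over single cells of both regions, and Atp2a3, which goblet-like cells also held. They are written 5′ to 3′ on the strand of the gene, and capitals mark an E-box (CANNTG), the short site of basic helix-loop-helix factors such as those of the secretory branch. The Sh2d6 window is chr6:72520037-72520286 on the minus strand, the Fyb window chr15:6579597-6579846 on the plus strand and the Atp2a3 window chr11:72960919-72961168 on the plus strand. None of the 3 windows overlapped an annotated exon, and those of Sh2d6 and Fyb lay within introns of longer GENCODE transcripts.
Sh2d6: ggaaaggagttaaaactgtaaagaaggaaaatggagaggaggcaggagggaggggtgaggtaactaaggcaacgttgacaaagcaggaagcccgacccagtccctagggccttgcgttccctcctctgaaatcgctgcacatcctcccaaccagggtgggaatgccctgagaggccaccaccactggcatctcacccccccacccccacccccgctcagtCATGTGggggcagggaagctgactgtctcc
Fyb: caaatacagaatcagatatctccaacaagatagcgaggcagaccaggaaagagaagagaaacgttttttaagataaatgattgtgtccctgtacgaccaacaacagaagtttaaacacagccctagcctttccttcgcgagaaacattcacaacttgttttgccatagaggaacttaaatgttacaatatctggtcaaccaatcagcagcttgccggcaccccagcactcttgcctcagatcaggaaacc
Atp2a3: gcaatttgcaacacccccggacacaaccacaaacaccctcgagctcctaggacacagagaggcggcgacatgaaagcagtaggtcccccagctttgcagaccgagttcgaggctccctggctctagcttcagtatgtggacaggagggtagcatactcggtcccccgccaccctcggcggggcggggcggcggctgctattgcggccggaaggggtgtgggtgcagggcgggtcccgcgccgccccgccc
An E-box stood in the windows of Sh2d6, Ptpn6 and Krt18, 3 of 6 members listed, and in 66.2% of 32851 promoter windows of the same length, both strands searched. The octamer ATGCAAAT, the site of POU factors such as the tuft cell factor Pou2f3, stood in 0 of the 6 and in 1.6% of all windows. CCACCC stood in Sh2d6 and Atp2a3 and in 28.1% of all windows. The E-box and the other motifs were searched apart and could overlap. A match of letters is a description and does not show binding.

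The samples held 198 to 568 cells, 2043 in all, with a median of 2766 to 8689.5 UMIs per cell. Mouse 1 stood apart: enterocyte-like cells were 13.5% to 17.6% of its cells and 59.6% to 81.1% of those of mice 2 and 3. Cells were clustered without the 8 genes and clusters were named from lists of known markers. This gave 858 enterocyte-like, 659 goblet-like, 211 crypt progenitor-like, 117 enteroendocrine-like and 39 tuft-like cells. A further 159 cells, called Paneth-like from 10 of 11 Paneth markers, also held 10 of 16 enterocyte and 5 of 11 goblet markers above the other cells and were shallow (median 1077 UMIs), so they enter no test. No cell name occurred in both tables.

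The 39 cells took their name from a list of tuft markers without the 8 genes. All 9 measured markers of it were raised in them, among them the leukotriene synthase Ltc4s (8.27 ± 4.69 CP10K, mean and SD of 3 mice) and the adaptor Skap2 (10.9 ± 1.65). The tyrosine kinase Matk, measured in the posterior table only, stood at 69.6 ± 12.6 CP10K. Enteroendocrine and goblet markers stayed low: Chga was at 0.195 CP10K and Chgb at 0.522, against 135 and 320 in enteroendocrine-like cells, and Muc2 was at 13.6 against 422 in goblet-like cells. Of enterocyte markers 1 of 16 was raised, and Fabp1, a fatty acid carrier of enterocytes, stood at 103 ± 9.45 CP10K against 102 ± 59.6 in enterocyte-like cells; the part of such RNA in the levels of the 8 genes was not tested. Of the 42 tuft genes listed, 33 were in neither table, Dclk1, Trpm5 and Pou2f3 among them. Mice 1, 2 and 3 gave 10, 3 and 4 of these cells anteriorly and 16, 1 and 5 posteriorly, which is 0.357% to 3.13% of a sample. The same 39 cells were tuft-like with the 8 genes in the clustering and at a finer resolution, and 38 of them at a coarser one.

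The 4 signalling genes were held by tuft-like cells at 27.8 to 92.8 CP10K and by every other class at under 1, as means over mice. Sh2d6 stood at 127, 95.6 and 55.5 CP10K in the tuft-like cells of mice 1, 2 and 3 (92.8 ± 36.0, SD, n = 3), and 92.1% of all its UMIs lay in these cells, 1.91% of all cells. In no other class did its mean over mice pass 0.551 CP10K, the value of the Paneth-like cells. It was the member most confined to tuft-like cells. Fyb stood at 31.3, 33.0 and 27.5 CP10K (30.6 ± 2.83) and at 0.0111 ± 0.0192 in enteroendocrine-like cells, its lowest class. Ptpn6 stood at 28.9, 34.0 and 20.5 CP10K (27.8 ± 6.82) and at 0.0942 to 0.449 in the other classes. For each of these genes the lowest tuft-like mouse lay far above the highest mouse of any other class.

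Ptpn18 was even over mice in tuft-like cells (55.4, 65.3 and 56.8 CP10K, 59.2 ± 5.37) but less confined. The other classes held it at 0.419 to 0.737 CP10K, with no class above the rest. The 858 enterocyte-like cells (median 6895 UMIs over the shared genes) held 22.8% of its UMIs, and the 39 tuft-like cells (median 2838) 52.7%. The Ptpn18 level in enterocyte-like cells was 0.499 ± 0.217 CP10K, within the spread of the goblet-like (0.544 ± 0.502) and crypt progenitor-like cells (0.548 ± 0.224).

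The surface, keratin, calcium and membrane genes were also highest in tuft-like cells. Their second class was enteroendocrine-like (Cd24a, Reep5) or goblet-like (Krt18, Atp2a3), at 1.22 to 35.7 CP10K. Of the signalling genes, Ptpn6 also had enteroendocrine-like cells second, at 0.449 CP10K. The second class was Paneth-like for Sh2d6 and Ptpn18 and crypt progenitor-like for Fyb. For Sh2d6 that rank rests on mouse 1, since Paneth-like cells held 1.65, 0 and 0 CP10K in mice 1, 2 and 3. In the anterior sample of mouse 1 a single Paneth-like cell held 15 of their 19 Sh2d6 UMIs. Cd24a was the least even: 59.5, 12.2 and 40.9 CP10K in tuft-like cells of mice 1, 2 and 3 (37.5 ± 23.8), then 6.04, 4.81 and 6.98 in enteroendocrine-like cells (5.94 ± 1.09). Its level in tuft-like cells of mouse 2 was the closest of all to that of enteroendocrine-like cells. Krt18 stood at 557, 590 and 492 CP10K in tuft-like cells (546 ± 49.6), then at 44.1, 26.6 and 36.3 in goblet-like cells (35.7 ± 8.75) and at 16.2, 9.19 and 11.7 in enteroendocrine-like cells (12.4 ± 3.56). Atp2a3 kept the same order, with 67.1, 138 and 103 CP10K in tuft-like (103 ± 35.3), 10, 9.47 and 11.0 in goblet-like (10.2 ± 0.775) and 4.02, 5.17 and 2.08 in enteroendocrine-like cells (3.75 ± 1.56). Reep5 stood at 45.5, 48.0 and 34.6 CP10K in tuft-like cells (42.7 ± 7.12), at 1.22 ± 0.483 in enteroendocrine-like and at 0.597 ± 0.177 in goblet-like cells. Goblet-like cells, the more numerous, held more UMIs of Krt18 (44.1% of all) and Atp2a3 (54.9%) than tuft-like cells did (35.6% and 33.2%).

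**Figure D1:**
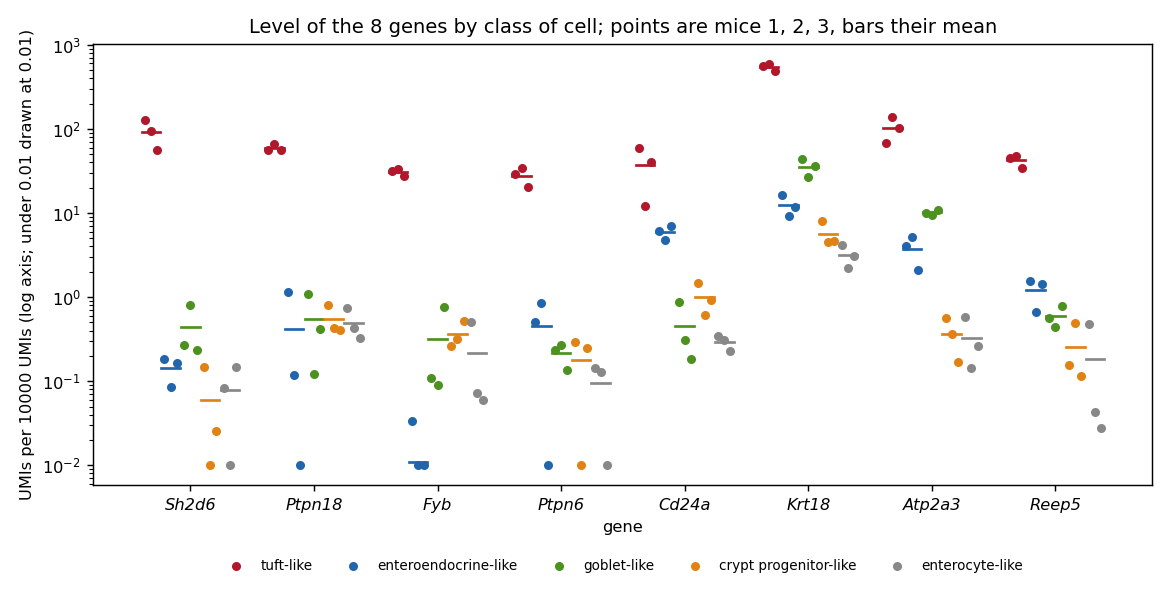
Level of each of the 8 genes in 5 classes of cells, in UMIs per 10000 UMIs on a log axis; points are mice 1, 2 and 3 from left to right and bars their mean. Tuft-like cells lie above all other classes for every gene, with Cd24a of mouse 2 (12.2) the closest to enteroendocrine-like cells, while goblet-like cells come second for Krt18 and Atp2a3 and enteroendocrine-like cells for Cd24a and Reep5. Paneth-like cells are not drawn.

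Within single cells the genes occurred together, which is a description, since all 8 were selected on the tuft-like cells. Of the 39 tuft-like cells, 28 held a UMI of all 8 genes and 36 of at least 7. Outside them, 1 of 2004 cells held at least 7, an enterocyte-like cell of anterior mouse 1 with 9517 UMIs. The median cell held 8 of the genes among tuft-like cells, 3 among crypt progenitor-like, 2 among goblet-like and enteroendocrine-like and 1 among enterocyte-like and Paneth-like cells. Crypt progenitor-like cells were the deepest class (median 11632 UMIs over the shared genes, against 2838 in tuft-like cells).

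**Figure D2:**
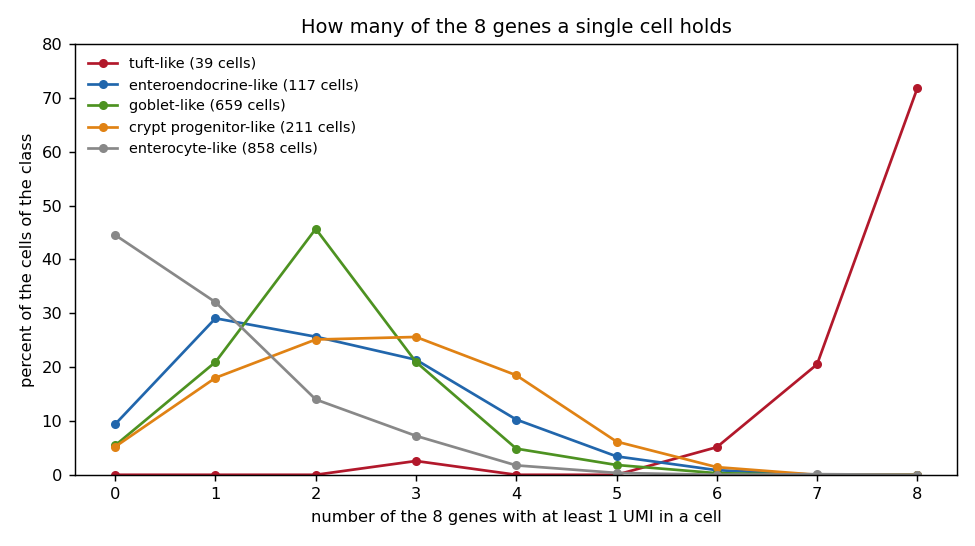
Percent of the cells of each class (vertical axis) that hold at least 1 UMI of 0 to 8 of the genes (horizontal axis); each line is a class. The tuft-like line peaks at all 8 genes (28 of 39 cells), and the other classes lie mostly at 0 to 4.

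To set the depth equal, each cell was thinned to 1500 UMIs, which left out 3 of 39 tuft-like, 29 of 117 enteroendocrine-like, 213 of 659 goblet-like, 1 of 211 crypt progenitor-like and 167 of 858 enterocyte-like cells. Thinned, Sh2d6 was found in 97.2% of tuft-like cells, Ptpn18 in 94.4%, Ptpn6 in 83.3% and Fyb in 77.8%. In thinned enteroendocrine-like cells Sh2d6 and Ptpn6 were each found in 1.14%, against 1.01% and 0.724% of enterocyte-like cells. Ptpn18 was found in 5.68% and Fyb in 0% of them, against 5.35% and 1.74% of enterocyte-like cells. In thinned crypt progenitor-like cells Fyb was found in 7.62% and Ptpn6 in 3.81%. Whether such low shares are background was not tested. Cd24a differed: it was found in 34.1% of enteroendocrine-like cells, 14.8% of crypt progenitor-like, 7.62% of goblet-like and 2.17% of enterocyte-like cells. Reep5 was found in 15.9% of enteroendocrine-like, 6.95% of goblet-like, 1.43% of crypt progenitor-like and 1.01% of enterocyte-like cells. Atp2a3 and Krt18 were found in 61.4% and 91.7% of goblet-like cells, in 31.8% and 68.2% of enteroendocrine-like cells and in 1.88% and 18.4% of enterocyte-like cells. In crypt progenitor-like cells they were found in 8.1% and 51%, or unthinned in 30.8% and 90% at a median of 11632 UMIs. Unthinned, the enteroendocrine-like shares were 38.5% for Cd24a, 25.6% for Reep5, 42.7% for Atp2a3 and 75.2% for Krt18, at a median of 3498 UMIs against 6895 in enterocyte-like cells. The unthinned goblet-like shares were 67.8% for Atp2a3 and 89.4% for Krt18, at a median of 2109 UMIs.

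At least 10 UMIs of Sh2d6, Fyb and Ptpn6 together were held by 37 of 39 tuft-like and by 4 of 2004 other cells. This choice of 3 genes was made after their values were seen, and no other set was compared. The tuft-like cells themselves varied: Sh2d6 ran from 0 to 311 CP10K with a median of 102, Cd24a from 0 to 188 with a median of 36.5, and Krt18, found in every one of them, from 38.4 to 1100 with a median of 508. The coefficient of variation over the 39 cells was 0.45 for Krt18 and 0.956 for Cd24a, the lowest and the highest of the 8.

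Correlations over single cells repeat this picture as a description, since cells of a sample share its library and depth. Pearson's r of log2(CP10K + 1) over the 28 pairs of genes had a median of 0.33 in the anterior (0.18 to 0.67, n = 1028 cells) and 0.46 in the posterior jejunum (0.29 to 0.72, n = 1015). By the mean of both regions Sh2d6 was closest to Fyb (r = 0.67 anterior and 0.71 posterior) and then to Ptpn6 (0.65 and 0.71), while in the posterior jejunum alone it was closest to Reep5 (0.72, against 0.56 in the anterior). By sample, the median over the anterior cells of mice 1, 2 and 3 was 0.31, 0.45 and 0.46, and over their posterior cells 0.43, 0.18 and 0.58. It was lowest in posterior mouse 2, which held a single tuft-like cell. Without mouse 1, whose cell types stood apart, the anterior median over 28 pairs was 0.45. Without the tuft-like cells the median fell to 0.05 in both regions. A single pair kept a correlation above 0.19 there: Krt18 and Atp2a3, with r = 0.51 (n = 1011) and 0.42 (n = 993).

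Among the 39 tuft-like cells the 8 genes did not vary as 1 group. The median r was 0.25, and 20 of 28 pairs were above 0. Krt18 with Atp2a3 (0.67), Sh2d6 with Krt18 (0.66) and Ptpn18 with Atp2a3 (0.61) were the closest pairs. Cd24a ran against several of the others: r was −0.27 with Fyb, −0.26 with Ptpn6 and −0.23 with Krt18. Reep5 was near 0 with most members (−0.06 to 0.27). Tuft-like cells of different mice are pooled in these values, and Cd24a was lowest in mouse 2, so differences between mice enter them. A tuft-like cell of anterior mouse 1 held 0 UMIs of Sh2d6, Ptpn18, Fyb, Ptpn6 and Atp2a3 and 9 of Krt18. It enters these values too, and r without it was not computed.

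**Figure D3:**
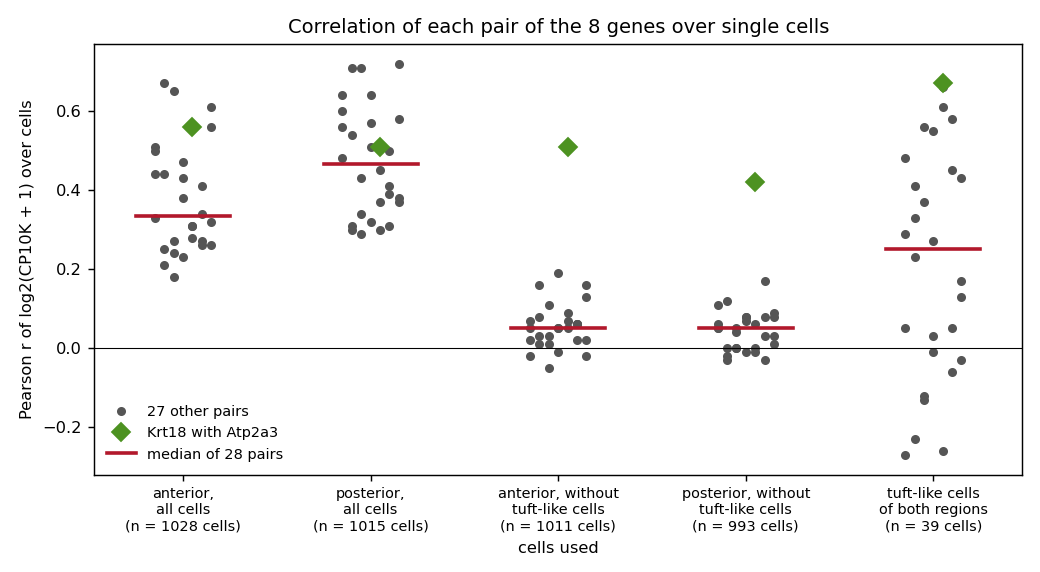
Pearson r over cells (vertical axis) for each of the 28 pairs of the 8 genes, in 5 sets of cells (horizontal axis); red bars are medians and green diamonds the pair Krt18 and Atp2a3. The medians are 0.33 and 0.46 with all cells and 0.05 without tuft-like cells, where the diamond alone stays high.

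Which members enteroendocrine-like cells shared was tested on classes other than tuft-like. Enteroendocrine-like cells were set against the mean of enterocyte-like, goblet-like and crypt progenitor-like cells, over 3 mice with mouse as a block (limma on log2(mean CP10K + 0.2), Benjamini-Hochberg adjustment over 5301 genes). Of the 8 members 7 passed the filter of 0.2 CP10K, which Sh2d6 did not. Cd24a, Atp2a3 and Reep5 were higher in enteroendocrine-like cells and 0 lower, 3 of 7 called, where 13.7% of all genes were called and 5.70% higher. The median difference of the 7 was log2 0.60, against −0.13 over all genes tested.

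Cd24a showed the clearest sharing. Its enteroendocrine-like levels of 6.04, 4.81 and 6.98 CP10K in mice 1, 2 and 3 stood against 1.47, 0.605 and 0.922 in crypt progenitor-like, 0.875, 0.311 and 0.185 in goblet-like and 0.344, 0.312 and 0.231 in enterocyte-like cells. The enteroendocrine-like values did not overlap those of any of the 3 classes. The difference from their mean was log2 3.13 (SE 0.37, limma adjusted p = 1.75e-05), 8.73-fold. It lay between 2.35 and 4.23 in each of the 6 samples taken alone. Cd24a was also higher against each class: by log2 3.62 over enterocyte-like (adjusted p = 1.95e-05, limma), 3.35 over goblet-like (adjusted p = 4.74e-05) and 2.41 over crypt progenitor-like cells (adjusted p = 0.000873). Below enteroendocrine-like cells, crypt progenitor-like minus enterocyte-like was log2 1.22 (adjusted p = 0.0643, limma), called in 3 of 20 alternatives, and goblet-like minus enterocyte-like was 0.27 (adjusted p = 0.747), called in 0 of 20. The 3 were weights per class and mouse (log2 1.10, limma adjusted p = 0.00181), summed UMIs (1.47, adjusted p = 0.015) and anterior samples alone (1.68, adjusted p = 0.0465). The difference of Cd24a from goblet-like cells was not called with posterior samples alone (3.06, limma adjusted p = 0.0557). All 20 alternative settings called the Cd24a difference from the mean of the 3 classes, with log2 0.88 to 3.5, and 2.86 to 3.36 with each mouse left out in turn.

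Atp2a3 and Reep5 were shared less firmly. For Atp2a3 the difference was log2 1.40 (SE 0.35, limma adjusted p = 0.0136), and it was called in 14 of 20 alternatives. The call ended without mouse 1 (log2 1.5, limma adjusted p = 0.0556) and without mouse 2 (log2 1.04, adjusted p = 0.16). It also ended with anterior samples alone (limma adjusted p = 0.0843), at clustering resolution 1.5 (0.137) and with deposited log2 values (0.387). For Reep5 it was log2 1.49 (SE 0.45, limma adjusted p = 0.0337), called in 11 of 19 alternatives and in none that left out a mouse (adjusted p = 0.107, 0.0571 and 0.17 without mouse 1, 2 and 3). With posterior samples alone the Reep5 difference was log2 0.04 (limma adjusted p = 0.976). Its call also ended at resolution 1.5 (limma adjusted p = 0.197), with a pseudocount of 0.05 (0.0555) and with totals over genes each under 0.5% of UMIs (0.0659). With a weight fitted to each class and mouse, an alternative chosen after the data were seen because mice 2 and 3 gave 15 and 10 enteroendocrine-like cells against 92 in mouse 1, both calls ended (adjusted p = 0.0818 for Atp2a3 and 0.108 for Reep5) and that of Cd24a stayed (adjusted p = 0.000423). On simulated data the fit with equal weights called too many unchanged genes in enteroendocrine-like cells, mostly as lower, and the weighted fit did not.

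The other 4 tested members were not called. Among alternatives Fyb was called lower in 4 of 16 and Krt18 higher in 2 of 20. Ptpn18 was called in 0 of 19 and Ptpn6 in 0 of 15. Krt18 differed by log2 0.50 (SE 0.24, limma adjusted p = 0.165), since enteroendocrine-like cells lay above enterocyte-like and below goblet-like cells. Ptpn6 differed by 0.60 (SE 0.38, adjusted p = 0.295), Ptpn18 by −0.63 (SE 0.43, adjusted p = 0.338) and Fyb by −1.09 (SE 0.36, adjusted p = 0.0503). Sh2d6, which marks tuft-like cells most sharply, stood at 0.144 CP10K in enteroendocrine-like cells, below the 0.439 of goblet-like cells. The goblet gene Muc2 stood there at 10.6 CP10K, near its level in enterocyte-like cells (11.1).

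Taken class by class, Krt18 and Atp2a3 were genes of goblet-like cells second to tuft-like ones. Goblet-like minus enterocyte-like cells was log2 3.43 for Krt18 (SE 0.29, limma adjusted p = 2.04e-07) and 4.37 for Atp2a3 (SE 0.43, adjusted p = 1.45e-06), 2 of 7 members called where 12.4% of all genes were and 2.79% were higher. Against crypt progenitor-like cells the differences were 2.63 (adjusted p = 3.35e-06, limma) and 4.25 (adjusted p = 1.77e-06), again 2 of 7, with 33.8% of all genes called. These 4 differences were called in 20 of 20 alternatives. Reep5 was not called, but its goblet-like minus enterocyte-like difference was called higher in 4 of 19 alternatives. They were weights per class and mouse (log2 1.56, limma adjusted p = 0.0111), summed UMIs (1.86, adjusted p = 0.00598), 6 samples with sample as block (1.34, adjusted p = 0.0337) and posterior samples alone (2.00, adjusted p = 0.0262). Against crypt progenitor-like cells it was called in 1 of 19. Within goblet-like cells, Atp2a3 stood at 11.0 and 11.9 CP10K in a pair of clusters with a median of 1352 and 2528 UMIs and at 4.44 in the deep one (10008 UMIs), and Krt18 at 46.1, 46.4 and 24.6. The part that depth plays in this was not tested.

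Enteroendocrine-like cells lay between goblet-like and the other classes for both genes. They held less Krt18 than goblet-like cells (log2 −1.52, SE 0.29, limma adjusted p = 0.00201) and more than enterocyte-like (1.91, adjusted p = 0.000176) and crypt progenitor-like cells (1.11, adjusted p = 0.0102). For Atp2a3 the differences were −1.47 (adjusted p = 0.03, limma), 2.90 (adjusted p = 0.000134) and 2.78 (adjusted p = 0.00019). The goblet-like difference of Atp2a3 was called in 14 of 20 alternatives, and not without mouse 1, 2 or 3 (limma adjusted p = 0.0915, 0.0622 and 0.247). Nor was it called with weights per class and mouse (limma adjusted p = 0.142), a pseudocount of 0.05 (0.0612) or posterior samples alone (0.513). The goblet-like difference of Krt18 was called in 17 of 20, and not without mouse 2 (limma adjusted p = 0.0505), without mouse 3 (0.0544) or with posterior samples alone (0.131). The Krt18 difference from crypt progenitor-like cells was likewise called in 17 of 20, and not without mouse 2 (limma adjusted p = 0.0902), without mouse 3 (0.137) or with posterior samples alone (0.162). Reep5 was higher in enteroendocrine-like than in enterocyte-like (log2 2.02, limma adjusted p = 0.0169) and crypt progenitor-like cells (1.67, adjusted p = 0.0352), and its difference from goblet-like cells was 0.79 (adjusted p = 0.366), or −1.09 with posterior samples alone. The Reep5 call against enterocyte-like cells held in 15 of 19 alternatives. It was at the threshold without mouse 1 (limma adjusted p = 0.05) and ended without mouse 2 or 3 (0.0574 and 0.151), with posterior samples alone (0.365) and at clustering resolution 1.5 (0.111). Its call against crypt progenitor-like cells held in 14 of 19. It ended without mouse 1 or 3 (limma adjusted p = 0.199 and 0.196), with posterior samples alone (0.77), at resolution 1.5 (0.158) and with a pseudocount of 0.05 (0.0704). Fyb was lower in enteroendocrine-like than in crypt progenitor-like cells (log2 −1.40, limma adjusted p = 0.0291), called in 11 of 16 alternatives. It was not called without mouse 1 (adjusted p = 0.0699) or 2 (0.113), with a pseudocount of 1 (0.0798), with anterior samples alone (0.0563) or with deposited log2 values (0.0524). Only 2 of 117 enteroendocrine-like cells held a Fyb UMI, so the size depends on the pseudocount (log2 −0.43 with 1). In all, 4 members were called against enterocyte-like cells (14.4% of all genes called), 3 against goblet-like cells (12.2%) and 5 against crypt progenitor-like cells (22.1%). Crypt progenitor-like minus enterocyte-like cells gave 0 of 7 members with limma (2 at an unadjusted p under 0.05, Cd24a and Krt18), where 19.8% of all genes were called. With weights per class and mouse 3 members were called higher in crypt progenitor-like cells: Fyb (log2 1.00, limma adjusted p = 0.00254), Cd24a and Krt18 (0.79, adjusted p = 0.00129). Krt18 was called in 6 of 20 alternatives.

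**Figure D4:**
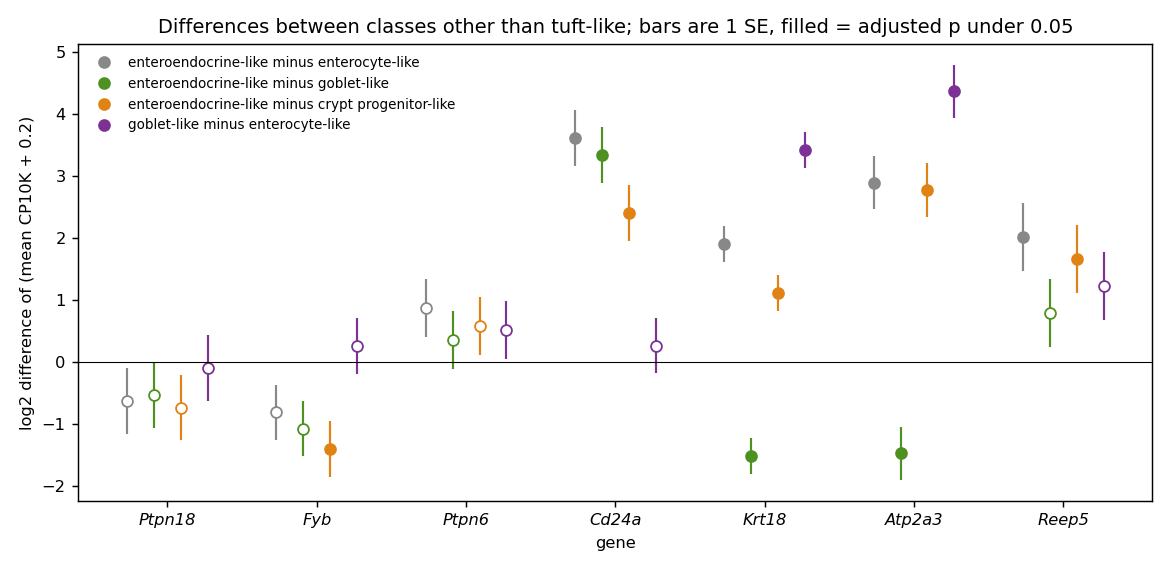
Difference between classes other than tuft-like (vertical axis, log2 of mean CP10K + 0.2) for the 7 members that passed the filter (horizontal axis); bars are 1 SE and filled points have a limma adjusted p under 0.05. Cd24a is higher in enteroendocrine-like cells against all 3 classes (2.41 to 3.62), while Krt18 and Atp2a3 are highest in goblet-like cells.

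The relatives of the 8 genes were not all tuft-like genes. The lists here were written with earlier results known. Their counts in the enteroendocrine contrast stand against 13.7% of all genes called and 30.2% at an unadjusted p under 0.05. Of simple keratins other than Krt18, Krt8 was high in tuft-like cells with it (128 ± 10.7 CP10K, against 25.3 ± 8.6 in enteroendocrine-like cells), while Krt7 (0.389 against 23.5), Krt19 (1.46 against 27.7) and Krt20 (2.22 against 13.2) stood the other way round. In the enteroendocrine contrast above, Krt7 (log2 4.18, limma adjusted p = 5.79e-07) and Krt20 (1.68, adjusted p = 0.00126) were higher, 2 of 4 keratins. Atp2a2, the common calcium pump SERCA2, stood at 1.08 ± 1.16 CP10K in tuft-like cells, where Atp2a3 stood at 103. Of 8 calcium store genes 1 was called in enteroendocrine-like cells, Itpr3 (log2 2.52, limma adjusted p = 0.000498), a calcium release channel of the taste cascade that was at 0.592 ± 0.825 CP10K in tuft-like cells.

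The other tyrosine phosphatases were low in tuft-like cells, with Ptpn1 at 1.06 ± 1.51 CP10K, and 1 of 6 was called in the enteroendocrine contrast (Ptprr, log2 −1.41, limma adjusted p = 0.0226). Of 7 genes of kinase and adaptor signalling 0 were called with limma (2 at an unadjusted p under 0.05). Reep6, a relative of Reep5, stood at 0.441 ± 0.468 CP10K in tuft-like and 7.9 ± 2.95 in enteroendocrine-like cells. In its list of genes that shape the endoplasmic reticulum, 1 of 7 was higher in enteroendocrine-like cells (Reep6, log2 0.92, limma adjusted p = 0.0409) and 1 lower (Atl2, −1.14, adjusted p = 0.0196). Of 2 measured genes of the taste-like cascade both were higher, Rgs2 (2.85, limma adjusted p = 0.000313) and Itpr3. Among 3 tuft transcription factors Sox4 was higher (3.20, limma adjusted p = 3.20e-05) and Atoh1, the switch to the secretory branch, lower (−1.16, adjusted p = 0.0266). The median difference of these lists ran from −0.27 (eicosanoid synthesis, 0 of 2 called, 0 at an unadjusted p under 0.05) to 2.69 (the taste-like cascade). The tuft structure list, with the actin bundler Espn (43.5 ± 7.85 CP10K in tuft-like and 1.6 ± 0.41 in enteroendocrine-like cells), had 0 of 4 called with limma and 0 at an unadjusted p under 0.05.

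The genes whose pattern over all cells was most like the mean of the 8 were Snrnp25 (mean r of both regions 0.55), a splicing protein, Selenom (0.50), Tmem176a (0.45), Ltc4s (0.44), Tm4sf4 (0.43), Aldh2 (0.41), Ethe1 (0.37), Skap2 (0.37), Tmem176b (0.37) and Tmem245 (0.33). Here r is over 1028 and 1015 cells. Like the 8 genes, these differed in how far other cells held them. Snrnp25 stood at 24.6 ± 6.27 CP10K in tuft-like and 0.244 ± 0.31 in enteroendocrine-like cells, and Tm4sf4 at 32.6 ± 12.9 and 16.6 ± 5.1. Of single members, Krt18 was nearest to the goblet genes Muc2 and Fcgbp (mean r 0.56 each) and Atp2a3 to Krt18 (0.54) and Fcgbp (0.50). The nearest genes of the other 6 were all members, which the selection on the same tuft-like cells favours.

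No member was called different between anterior and posterior jejunum. These tests did not pair the 2 samples of a mouse, so differences between mice enter their SEs. With mouse as a block 0 members were called too. In tuft-like cells Sh2d6 stood at 95.8, 99.4 and 31.1 CP10K in the anterior samples of mice 1, 2 and 3 and at 147, 84 and 75 in the posterior ones, and the groups overlapped. Cd24a stood at 31.2, 12.9 and 73.7 CP10K anteriorly and at 77.1, 10.1 and 14.7 posteriorly, low in mouse 2 in both regions. Posterior mouse 2, with 1 tuft-like cell, was left out of the test, which compared 3 samples with 2. With limma 0 of 8 members were called and 0 had an unadjusted p under 0.05 (of all 1870 genes tested 0 were called, 0%, and 76 had such a p). The differences, anterior minus posterior, ran from log2 −0.65 (Sh2d6, SE 0.54, adjusted p = 0.931) to 0.28 (Fyb, SE 0.65, adjusted p = 0.971). The SEs of 0.39 to 0.69 limit what could be detected with so few cells and with mice not paired.

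**Figure D5:**
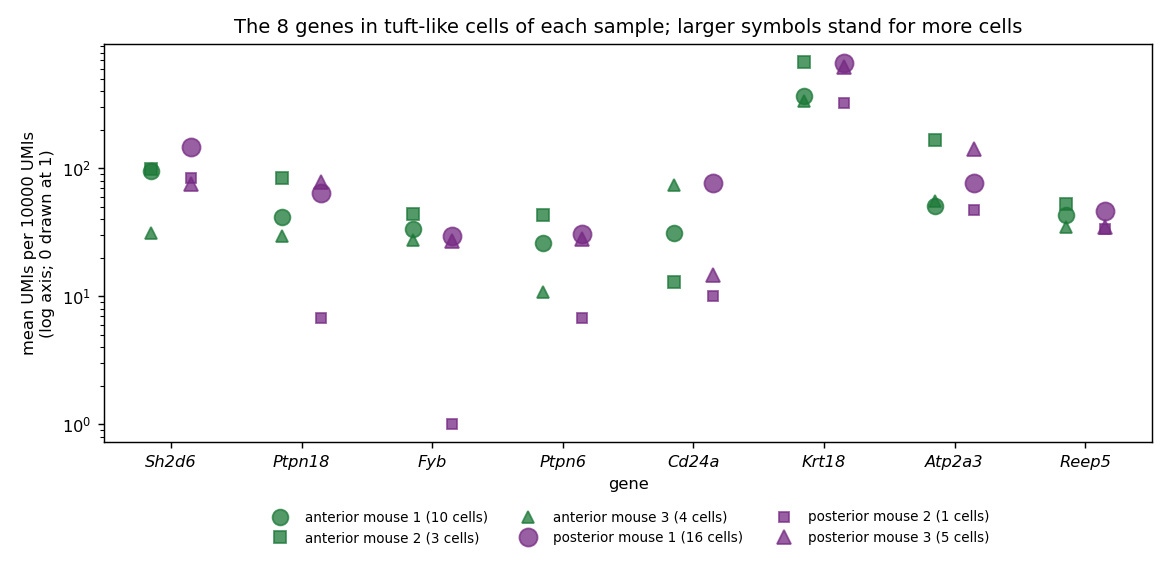
Mean level of each gene in the tuft-like cells of each sample, in UMIs per 10000 UMIs on a log axis; colours are regions, symbols mice, and larger symbols stand for more cells (1 to 16). Anterior and posterior samples overlap for every gene, and posterior mouse 2, the lowest for every gene but Sh2d6, is a single cell.

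A mean over all cells holds both the number of tuft-like cells and the level in each class. Over all cells Sh2d6 stood at 2.07, 1.77 and 0.621 CP10K anteriorly and at 4.93, 0.30 and 1.80 posteriorly (mice 1, 2 and 3). The highest and the lowest value came from the samples with 16 tuft-like cells and with 1. Cd24a did not keep that order: it was lowest in anterior mouse 2 (0.587 CP10K, 3 tuft-like cells), below posterior mouse 2 (0.713, 1 tuft-like cell). Over all cells limma called 0 of 8 members and 0 of 5195 genes (0%), with 0 members and 236 genes at an unadjusted p under 0.05.

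In the other classes limma called 0 members between regions: 0 of 4 in enterocyte-like (0% of all genes called), 0 of 8 in goblet-like (0.0233%), 0 of 6 in crypt progenitor-like (0%) and 0 of 6 in enteroendocrine-like cells (0.110%), and 0 members had an unadjusted p under 0.05 in any of these. Samples of the 2 regions did not overlap for 1 of 8 members in goblet-like cells, where 6.93% of all genes did not, and for 1 of 6 in enteroendocrine-like cells, where 10.1% did not. Atp2a3 in goblet-like cells stood at 9.57, 8.23 and 6.93 CP10K anteriorly and 10.4, 11.3 and 15.2 posteriorly (log2 −0.56, SE 0.42, limma adjusted p = 0.999). Reep5 in enteroendocrine-like cells stood at 2.06, 1.43 and 1.46 CP10K anteriorly and at 0.528, 0 and 1.4 posteriorly (log2 1.57, SE 1.16, limma adjusted p = 0.98), the last 2 from 8 and 4 cells. The enteroendocrine contrast itself was not called different between regions for any of 7 members (0.170% of all genes called, 0 members at an unadjusted p under 0.05). Its largest regional difference among members was that of Reep5 (log2 1.39, SE 0.74, limma adjusted p = 0.418).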

How the data were processed

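Members and gene lists were chosen with earlier results of these data known. The authors deposited, for each region, a table of log2 values per gene and cell. Per the submitters' processing notes, the tools were STAR 2.6.1b, UMI-tools 1.0.0, cutadapt 1.18, bcl2fastq and R 3.5.1, with GRCm38 and mm10 as builds. The sources used here do not give how genes and cells were filtered. Tested on the deposited values, each was log2(UMIs/size factor + 1) less a linear correction per gene for amplification pool and 2 covariates. Undoing it gave whole UMI counts for 99.9998% and 99.9996% of values (tolerance 0.01), and 0 columns went unmapped. The recovered UMIs were made into CP10K over shared genes, so the correction for pools is not in them.

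Cells were clustered with scanpy 1.11.5 and leidenalg 0.10.2 (1500 variable genes, 25 components, 15 neighbours, resolution 1), without the members. The naming rule was chosen with clusters seen. No doublet caller was run, as cells were sorted singly. Classes with at least 5 cells in a mouse were tested with limma 3.58.1 (R 4.3.3; eBayes with trend) on log2(mean CP10K + 0.2), which understates the change of low genes, with Benjamini-Hochberg adjustment, a threshold of 0.05 and a filter at 0.2 CP10K. Tests of region used samples with at least 10 cells (3 for enteroendocrine-like and tuft-like cells, and 1 CP10K for the latter). They were run without mouse as a block. The fits were tested on simulated data. The numbers pair the samples, since same-numbered samples come from the same mouse. Deviations from the region means over 5195 genes correlated within a mouse at 0.69, 0.28 and 0.30, and between mice 2 and 3 at 0.24 and 0.27. Genes named are the 8 members, the 10 genes of highest mean r with them, the 2 genes of highest r with each member and the list genes of smallest p.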

Additional observations from a re-analysis of the deposited data

How the results depend on the processing

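Settings were varied one at a time: pseudocount, filter, scaling, the replicate block, regions apart, cell minimum, clustering, deposited log2 values and each mouse or sample left out. Against the mean of 3 classes, 3 members were called. That count was 1 with weights per class and mouse (added after the data were seen), 1 at clustering resolution 1.5, where a further cluster of 79 cells took that name, and 5 with 6 samples and the sample as block. It was 1 to 2 with a mouse left out. Without the replicate block it was 3. Of the 6 pairs of classes, 16 differences were called, 10 with posterior samples alone and 10 to 13 with a mouse left out, where fewer samples enter. With the replicate block 0 members were called between regions, as without it. The median r over the 28 pairs was 0.32 to 0.45 in the anterior and 0.44 to 0.49 in the posterior jejunum with a mouse left out. The test in tuft-like cells without mouse 1 and with mouse as a block could not be fitted, since posterior mouse 2 held 1 tuft-like cell. Of 96 tested differences, the 19 called ones kept their sign in every alternative run, and 33 that were not called changed sign in at least 1, with 0 of those values called. The enteroendocrine-like class rests on 117 cells, 92 of them of mouse 1, and the tuft-like class on 39, so small differences could not be detected. For the other changes of count the cause was not tested.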

Other observations

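A pair of cells in wells A_A09 and A_C09 of the same amplification pool of anterior mouse 1 held different members of the 8 genes. The cell in A_A09, clustered as Paneth-like (1454 UMIs), held 15 UMIs of Sh2d6, 11 of Fyb, 2 of Ptpn6, 2 of Cd24a and 53 of Krt18, and 0 of Ptpn18, Atp2a3 and Reep5. The cell in A_C09, clustered as tuft-like (1846 UMIs), held 0 UMIs of Sh2d6, Fyb, Ptpn6, Ptpn18 and Atp2a3, but 12 of Cd24a, 12 of Reep5 and 9 of Krt18. Of tuft markers other than the 8 genes, A_C09 held 21 UMIs of Aldh2, 4 of Ltc4s and 1 of Skap2, and A_A09 held 2, 0 and 1. These cells were singled out after their values were seen, and why they differ was not tested.

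Within the 39 tuft-like cells, the genes that followed the mean of Sh2d6, Ptpn18, Ptpn6, Krt18 and Atp2a3, 5 members grouped after their values were seen, were led by Espn and Cdhr5. Espn, an actin bundler of microvilli, and Cdhr5, a cadherin that links their tips, had r = 0.64 each, Krt8 had 0.56, Eps8l3 0.53, Crip1 0.52 and H2-D1 0.50, of 288 genes found in at least 20 of the cells. Against the same mean, 43 of 45 genes of cytosolic ribosomal proteins were below 0 (median r −0.27), as were 19 of 26 nuclear genes of oxidative phosphorylation (−0.16), against 143 of all 288 genes (0.01). Cd24a was nearest to Anxa4 (0.56) and Cdkn1a (0.51). Here r over 39 cells of 3 mice is given as a description. The cell in A_C09, with 0 UMIs of Sh2d6, Ptpn18, Ptpn6 and Atp2a3, is among the 39. How far these values rest on that cell was not tested.

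Wells carry a label "pos" or "neg" under the heading "cell marker", and the sources used here do not name the marker. Tuft-like cells were 17 of 1085 cells (1.57%) in wells labelled pos and 22 of 958 (2.3%) in those labelled neg.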
